A study of Drosophila melanogaster with 21 samples.

Results

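Male wing imaginal discs that lack the RNA helicase MLE were compared with discs that lack MSL-2, the protein that restricts dosage compensation to males. The contrast was made directly between the homozygous mutants, 3 mle mutant libraries against 4 msl-2 mutant libraries, which are 7 of the 21 libraries of the series. The mle mutant larvae were homozygous for mle.9 and the msl-2 mutant larvae for msl-2.227, both labelled as null and kept in separate stocks. Where stated, the 2 mle heterozygous and 3 msl-2 heterozygous libraries, whose larvae carried the same allele over the CyO-GFP balancer, are given beside them. All larvae were males in the third larval instar reared at 25 °C, and poly-A RNA of their wing discs was sequenced. Every difference between the mutants is also a difference between the stocks, so genotype and stock cannot be told apart in the direct contrast. Heterozygotes carried a balancer chromosome 2 that mutants lacked, so values against heterozygotes can hold differences linked to that chromosome. The labels do not say how many discs went into a library or that libraries came from separate cultures, so p-values measure the spread between these libraries, which may be technical.

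Males have 1 X and females a pair. In fruit flies the MSL complex binds the X of males and raises the transcription of its genes. MSL-2 and MSL-1 form the core that finds the X, MSL-3 reads a histone mark of active genes, MOF acetylates histone H4, and the helicase MLE remodels the non-coding RNAs roX1 and roX2 so that they can join the complex. The wing disc is the larval epithelium from which the adult wing and part of the thorax form. Stressed or damaged discs are known to switch on JNK signalling and to secrete the relaxin-like hormone Ilp8, which delays pupation.

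Total counts ran from 1659482 to 2483435 in the mle mutant libraries and from 2458046 to 2763656 in the msl-2 mutant libraries. Across the genes tested, log2 CPM (counts scaled to library size) of libraries correlated at 0.943 to 0.965 within the mle mutants, at 0.956 to 0.977 within the msl-2 mutants and at 0.922 to 0.941 between them. The wing marker nub was present in every library, with 209.8, 129.8 and 251 CPM in mle mutant discs, against 271, 378, 291 and 339 CPM in msl-2 mutant discs. Every mle mutant library thus lay below every msl-2 mutant library, so nub does not show an equal content of wing cells. Of the lists of markers of other cells, that of the fat body summed to 605 to 641 CPM in mle mutant discs and to 658 to 893 CPM in 3 of the msl-2 mutant libraries, but to 7286 CPM in msl-2 mutant replicate 2. Larval muscle markers summed to 2512 CPM in mle mutant replicate 3 and to 1208 and 1105 CPM in the other mle mutant libraries, against 1339 to 2032 CPM in msl-2 mutant discs. Both libraries stand apart in these markers, and the values without each are given beside the counts they touch.

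The transcripts of the complex were measured first. roX1 (X, 3857230 to 3862697 in dm6, within which ec lies on the other strand) had 61.1, 114 and 126 CPM in mle mutant discs, against 1575, 1883, 1564 and 1706 CPM in msl-2 mutant discs. No library of one mutant came near one of the other, and the fold change was -4.06 ± 0.25 on the log2 scale (mle over msl-2 mutant, SE; edgeR adjusted p = 3.03e-06). In the heterozygotes roX1 had 3571 and 3646 CPM in mle heterozygous discs, against 2475, 2601 and 2619.9 CPM in msl-2 heterozygous discs, a log2 difference of 0.50 that did not pass the test (edgeR adjusted p = 0.279). Relative to the heterozygotes of its own stock, roX1 fell by 5.16 on the log2 scale in mle mutant discs and by 0.60 in msl-2 mutant discs (edgeR adjusted p = 1.67e-09 and 0.0484). The difference between these differences was -4.55 (edgeR adjusted p = 5.30e-07). roX1 was thus far lower in mle than in msl-2 mutants, also relative to the heterozygotes of each stock.

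The other non-coding RNA of the complex, roX2, was near the lower limit of detection in both mutants. It had 2.80, 1.24 and 2.53 CPM in mle mutant discs, against 1.49, 3.24, 3.64 and 1.76 CPM in msl-2 mutant discs, and it did not pass the filter on low counts. Heterozygous discs had 264 and 368 CPM in mle heterozygous discs, against 272, 309 and 262 CPM in msl-2 heterozygous discs. The roX RNAs therefore differed in pattern, roX2 being low in both mutants and roX1 low in mle mutants but still abundant in msl-2 mutants. CG11695, the neighbour of roX2 on the X, had 13.5, 12.4 and 18.8 CPM in mle mutant discs, against 19.4, 17.8, 20.4 and 14.1 CPM in msl-2 mutant discs, and the groups overlapped (log2 fold change -0.25 ± 0.25, edgeR adjusted p = 0.661).

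The transcripts of the mutated genes were present in both mutants, which does not test whether protein was made. mle (2R, 5974857 to 5980778) had 214, 231 and 237 CPM in mle mutant discs, against 121, 98.5, 102 and 127 CPM in msl-2 mutant discs. Its level was higher in every mle mutant library than in every msl-2 mutant library (log2 fold change 1.03 ± 0.13, edgeR adjusted p = 0.000784), and in mle heterozygous discs it was 142 and 143 CPM. Against mle heterozygotes the mle transcript rose by 0.67 in mle mutants (edgeR adjusted p = 0.00604). Its difference of differences was 0.77 and did not pass (edgeR adjusted p = 0.182). msl-2 (2L, 3462218 to 3466112) had 70.7, 90.8 and 68.7 CPM in mle mutant discs, against 52.2, 49.9, 59.7 and 49.7 CPM in msl-2 mutant discs. The msl-2 groups did not overlap, but the difference of 0.54 ± 0.15 did not pass the test over all genes (edgeR adjusted p = 0.0552). Relative to its own heterozygotes, the msl-2 transcript changed by -0.89 in msl-2 mutants (edgeR adjusted p = 0.00149). Among the remaining subunits, log2 fold changes were -0.54 for msl-3, -0.52 for mof and -0.31 for msl-1, with edgeR adjusted p = 0.0738, 0.103 and 0.298. In all, 1 of the 6 tested transcripts of this list rose (mle) and 1 fell (roX1), against 2.54% and 3.33% of all genes tested.

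**Figure D1:**
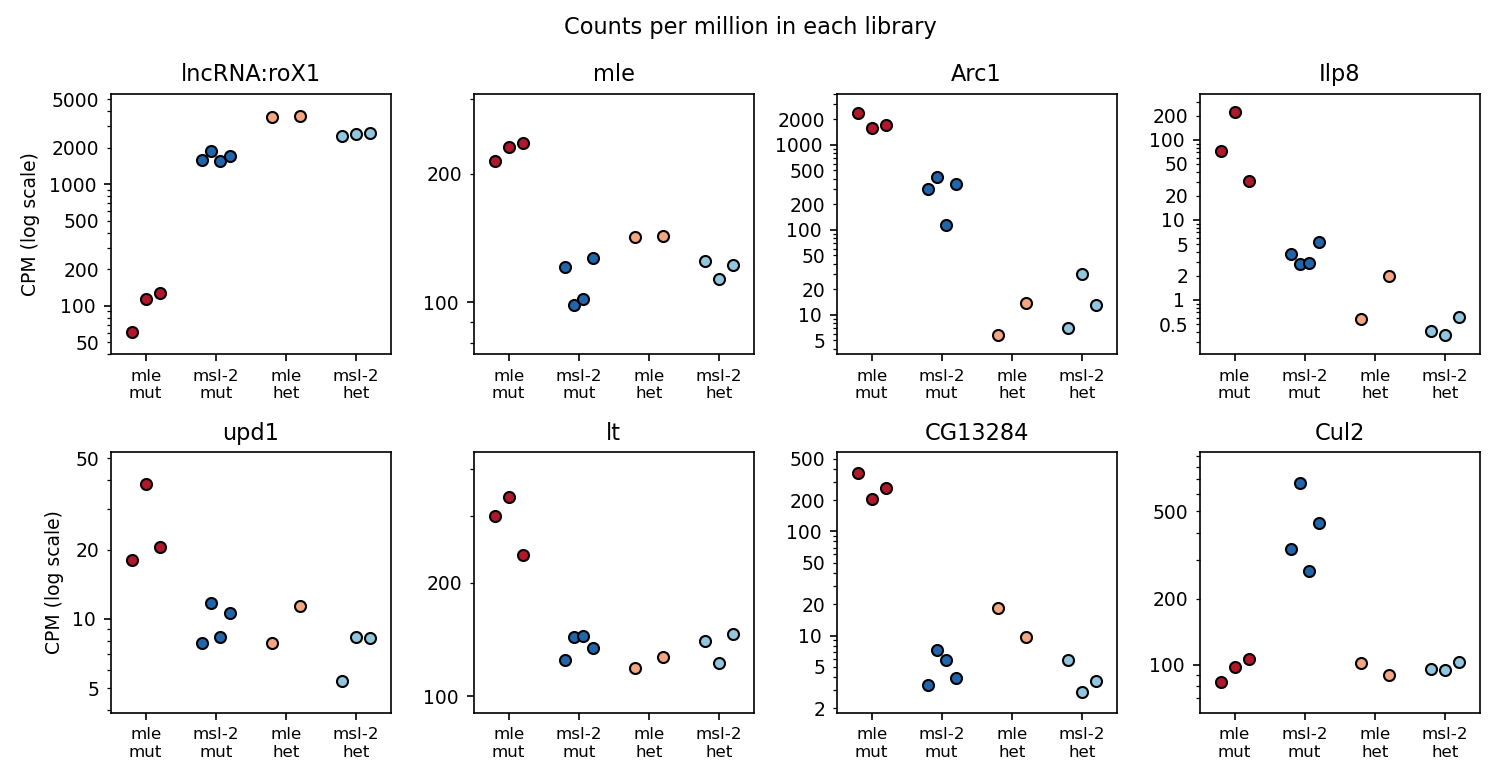
CPM of 8 genes in each library on log axes, with mle mutant, msl-2 mutant, mle heterozygous and msl-2 heterozygous discs from left to right; each point is a library. roX1 sits at 61.1 to 126 CPM in mle mutants and at 1564 to 1883 CPM in msl-2 mutants, Arc1 and Ilp8 are above both heterozygous groups in both mutants, and Cul2 stands out in msl-2 mutants alone.

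The X was then compared with the autosomes. X-linked genes were lower in mle than in msl-2 mutant discs as a group: the median log2 fold change over 1383 X-linked genes minus that over 7366 genes of chromosomes 2 and 3 was -0.22, so that the X stood at 85.9% of its level in msl-2 mutants. Of the X genes, 73.4% lay below the autosomal median. Per library, the X-linked median minus the autosomal median (gene-centred log2 CPM) was -0.089, -0.111 and -0.132 in the mle mutants in this fit of 7 libraries. The msl-2 mutants stood at 0.148, 0.103, 0.096 and 0.099. In the fit of 12 libraries (1508 X genes), which is centred on other means, it was -0.328, -0.318 and -0.342 in the mle mutants. There the msl-2 mutants stood at -0.094, -0.129, -0.147 and -0.120. The groups did not overlap in either fit, and the exact two-sided permutation test gave p = 0.0286 in both, the smallest that 35 splits allow. In the fit of 12 libraries heterozygous discs stood at 0.247 and 0.256 in the mle stock, against 0.196, 0.206 and 0.239 in the msl-2 stock.

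The heterozygotes of both stocks were close to each other. Their difference on the X was 0.05 (exact permutation p = 0.2, where 0.1 is the smallest possible), in the opposite direction to that between the mutants. Against its own heterozygotes the X stood at 65.6% in mle mutants (exact permutation p = 0.1, the smallest possible) and at 77.8% in msl-2 mutants (exact permutation p = 0.0286). When the difference of differences was instead taken for each gene, (mle mutant minus mle heterozygous) minus (msl-2 mutant minus msl-2 heterozygous), the median over X genes minus that over chromosomes 2 and 3 was -0.27 on the log2 scale, a value for which no test between libraries was made.

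**Figure D2:**
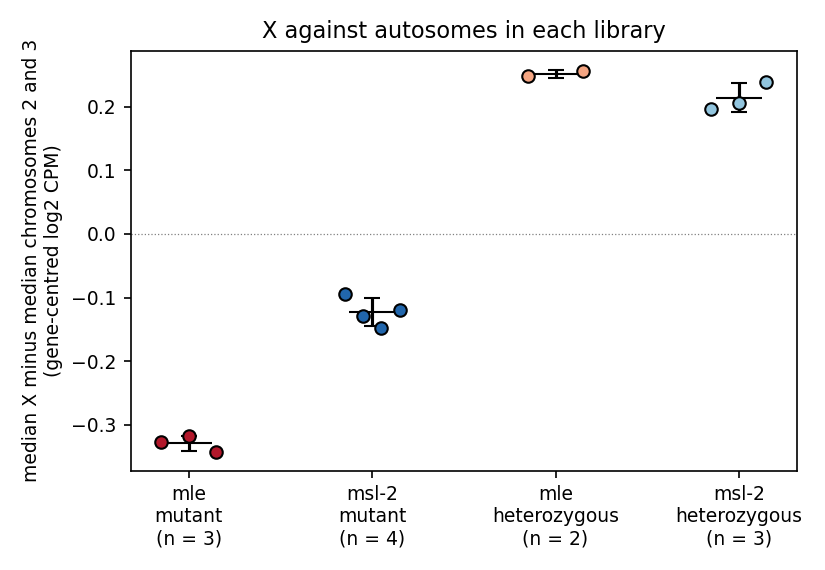
Median of X genes minus median of genes on chromosomes 2 and 3, in gene-centred log2 CPM over 12 libraries; points are libraries, horizontal bars group means and whiskers the SD. The 3 mle mutant libraries lie between -0.342 and -0.318, below all 4 msl-2 mutant libraries, and both heterozygous groups lie above 0.

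The shift was spread along the X. In windows of 1 Mb with at least 20 tested genes, the median of X genes lay below that of the autosomes in 21 of 22 windows, with values from -0.37 to 0.06 and a median of -0.19. With genes split by mean expression into 3 classes, the difference was -0.28 in the middle and -0.19 in the highest class (exact permutation p = 0.0286 each, 0.0429 after Benjamini-Hochberg adjustment over the 3 classes). In the lowest class it was -0.15 and did not pass (exact permutation p = 0.286). The small chromosome 4, which has its own chromosome-wide regulator in flies, was at -0.12 relative to chromosomes 2 and 3, and its libraries overlapped between the groups (82 genes, exact permutation p = 0.286).

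**Figure D3:**
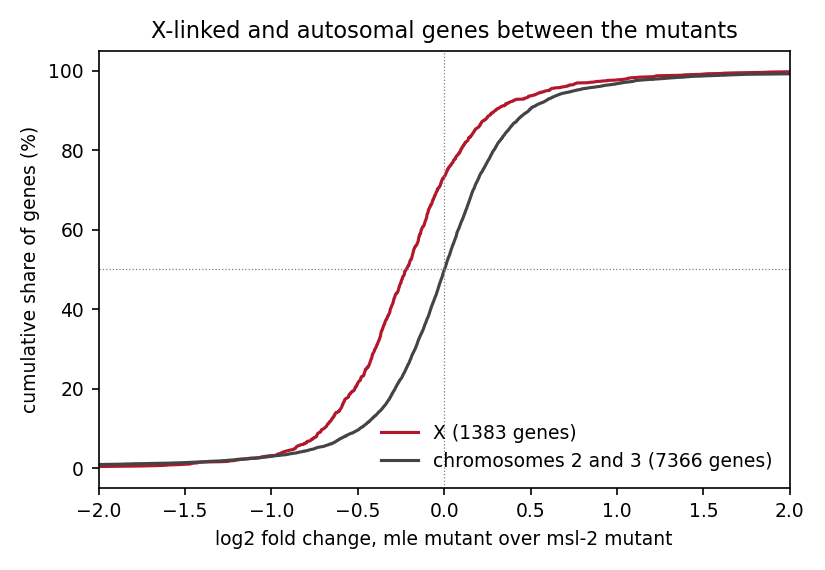
Cumulative share of genes (%) by log2 fold change of mle over msl-2 mutant discs, for 1383 X genes and 7366 genes on chromosomes 2 and 3. The X curve is shifted to the left over most of its range, with a median of -0.22 against 0.00 on the autosomes.

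Gene by gene, 531 of 9046 genes differed between the mutants at an edgeR adjusted p under 0.05 (5.87%), 230 higher in mle mutants (2.54%) and 301 lower (3.33%). On the X, 129 genes were called (9.33%), 22 higher (1.59%) and 107 lower (7.74%). On chromosomes 2 and 3, 386 genes were called (5.24%), 202 higher (2.74%) and 184 lower (2.50%). On chromosome 4, 3 of 82 genes were higher and 0 lower by edgeR (6 and 6 at an unadjusted p under 0.05; 3 and 0 by DESeq2). Scaling on all genes in place of autosomal genes changed the split to 280 higher and 241 lower (median log2 fold change of all genes 0.01 in place of -0.03). The X relative to the autosomes was -0.22 under both, but a common scaling factor drops out of that value, so this does not test it.

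The number of calls depended on single libraries more than the shift of the X did. Without mle mutant replicate 1, the most shallow of the 7, 110 genes were higher and 88 lower, 22 of the lower ones on the X. Without mle mutant replicate 3, which had the muscle transcripts, 180 were higher and 180 lower, 49 of them X-linked. Leaving out msl-2 mutant replicate 1, 2 or 4 gave 138, 159 and 137 higher and 123, 164 and 122 lower, with 32, 56 and 36 X-linked genes among the lower ones. The numbers of X genes called higher were 13 without mle mutant replicate 1, 14 without mle mutant replicate 3, and 13, 13 and 12 without msl-2 mutant replicates 1, 2 and 4. The shift of the X itself ranged from -0.20 to -0.23 over these fits.

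**Figure D4:**
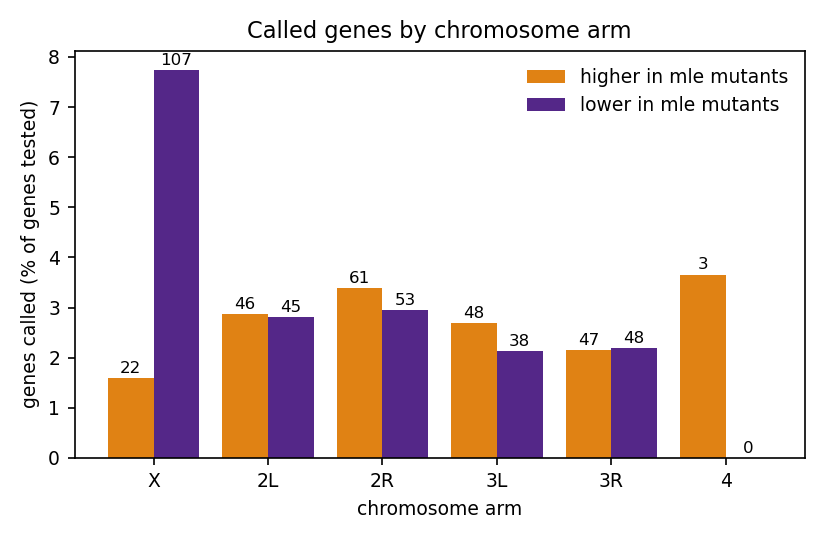
Share of tested genes called higher and lower in mle than in msl-2 mutant discs on each chromosome arm (%; edgeR adjusted p under 0.05), with the number of genes over each bar. The X is the arm with most calls downward, 107 genes (7.74%), against 1.59% upward.

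Because the mutated genes lie on different arms of chromosome 2, calls were also counted around each. Within 2 Mb of mle on 2R, 20 of 229 tested genes were higher and 3 lower in mle mutants (10.0% called), against 7.07% from 2 to 5 Mb and 5.45% farther away on that arm. Within 2 Mb of msl-2 on 2L, 4.75% were called, against 5.05% and 6.29% at the same distances. Linked differences between the mutant chromosomes and effects of the mutations cannot be told apart here.

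On the X, the 5 strongest increases by the naming rule were CG15047, CG5273, Pdzd8, CG6961 and Appl. Appl, the fly relative of the amyloid precursor protein, had 66.2, 71.8 and 53.9 CPM in mle mutant discs, against 13.4, 23.5, 27.3 and 19.0 CPM in msl-2 mutant discs. Its log2 fold change was 1.62 ± 0.23 (edgeR adjusted p = 0.00159), every mle mutant library lying above every msl-2 mutant library. Appl had 19.4 and 28.4 CPM in mle heterozygotes, against 12.0, 10.1 and 12.8 CPM in msl-2 heterozygotes. That log2 difference of 1.03 did not pass (edgeR adjusted p = 0.0988), nor did the difference of differences of 0.58 (edgeR adjusted p = 0.537). Pdzd8, which encodes a protein of contact sites between the endoplasmic reticulum and other organelles, had 11.8, 10.8 and 11.2 CPM in mle mutant discs, against 0.746, 2.03, 2.18 and 2.47 CPM in msl-2 mutant discs, a log2 difference of 2.57 ± 0.44 (edgeR adjusted p = 0.00597). Of the uncharacterised genes, CG15047 rose by 3.15, CG5273 by 2.73 and CG6961 by 1.86 on the log2 scale. CG15047 lost its call without msl-2 mutant replicate 4 (edgeR adjusted p = 0.0517), and CG5273 and CG6961 differed in the same direction between the heterozygotes, by 2.47 and 1.51 (edgeR adjusted p = 0.00164 and 0.004).

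By the same rule, which leaves out genes with a mean under 5 CPM, the strongest decreases on the X after roX1 were those of Lztr1, CG32817, CG14441 and CG9782. Lztr1, an adaptor of a ubiquitin ligase that acts on Ras proteins, had 8.41, 3.73 and 5.43 CPM in mle mutant discs, against 36.9, 23.9, 24.4 and 21.1 CPM in msl-2 mutant discs (log2 fold change -2.20 ± 0.33, edgeR adjusted p = 0.0024). It was as low in mle heterozygous discs, at 8.70 and 4.68 CPM against 29.4, 39.8 and 34.5 CPM in msl-2 heterozygous discs, so that it differed between the stocks in heterozygotes as in mutants. CG14441 had 24.7, 18.7 and 26.0 CPM in mle mutant discs, against 75.7, 64.4, 81.9 and 75.8 CPM in msl-2 mutant discs (log2 fold change -1.68 ± 0.17, edgeR adjusted p = 0.000163), and it too was lower in mle than in msl-2 heterozygous discs, by -0.96 (edgeR adjusted p = 0.0258). CG9782 fell by 1.63 on the log2 scale. CG32817 fell by 2.03, a call that was lost without any of the 3 mle mutant libraries or without msl-2 mutant replicate 1 or 2 (edgeR adjusted p from 0.0541 to 0.0763).

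Among autosomal genes, several of the largest differences were genes with no count at all in one mutant. CG18853 (2R, 7829062 to 7830429, overlapping Prosalpha1R on the other strand) had 57.2, 50.2 and 57.1 CPM in mle mutant discs, against 0, 0, 0 and 0 CPM in msl-2 mutant discs. It was at least 196-fold higher in mle mutants, taking 3 counts over the msl-2 mutant group (0.280 CPM) as the floor. In mle heterozygotes it had 15.7 and 22.4 CPM, and in msl-2 heterozygotes no count. It thus differed between the stocks in heterozygotes too (edgeR adjusted p = 2.05e-05). In the opposite direction, the overlapping pseudogenes CR31054 and CR45548 (3R, 27960768 to 27961476, and 27961443 to 27961821) had no count in any mle mutant or mle heterozygous library. CR31054 had 51.1, 37.3, 41.5 and 58.2 CPM in msl-2 mutant discs, so it was at least 109-fold lower in mle mutants against a floor of 0.431 CPM, as was CR45548. CG12592 and CG32318 were likewise at 0 in all mle mutant libraries, at least 43.0-fold and at least 39.0-fold lower. These 4 genes were also at 0 in both mle heterozygous libraries. In msl-2 heterozygotes CR31054, CR45548 and CG12592 had at least 14.1 CPM in every library. CG32318 had 0, 6.87 and 1.83 CPM there, and its difference between the heterozygotes did not pass (edgeR adjusted p = 0.185).

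Other autosomal genes were detected in both mutants and higher in mle mutants. CG13284 (2L, 16842300 to 16848716) had 363, 204 and 261 CPM in mle mutant discs, against 3.36, 7.30, 5.82 and 3.88 CPM in msl-2 mutant discs. Its log2 fold change was 5.77 ± 0.28 (edgeR adjusted p = 1.47e-06), and heterozygous discs had 18.6 and 9.70 CPM in mle heterozygous discs, against 5.80, 2.89 and 3.66 CPM in msl-2 heterozygous discs. CG43120 (3L, 14381913 to 14383299) had 94.8, 59.7 and 32.2 CPM in mle mutant discs, against 0, 1.62, 1.09 and 0.705 CPM in msl-2 mutant discs (log2 fold change 6.13 ± 0.57, edgeR adjusted p = 0.00041), and no heterozygous library passed 1.66 CPM. The antisense RNA CR43866, which overlaps Gal, had 19.1, 4.15 and 15.9 CPM in mle mutant discs, against 0, 0.811, 0.728 and 0.705 CPM in msl-2 mutant discs, with 6.38 and 9.37 CPM in mle and 1.24, 10.5 and 0.305 CPM in msl-2 heterozygotes, so that its level varied within the msl-2 stock. GstD3, a glutathione transferase of a tight cluster of close paralogs, had 42.1, 50.2 and 23.1 CPM in mle mutant discs, against 3.36, 2.43, 1.09 and 0.352 CPM in msl-2 mutant discs, and the heterozygotes differed as much (log2 4.80, edgeR adjusted p = 0.000159, against 4.40 between the mutants).

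The heterozygous libraries, which did not enter the direct contrast, show in which direction the called genes differed between the stocks. The share of all genes tested that lay in each direction was not counted, so the shares by direction have no background beside them. Of the 230 genes higher in mle mutants, 172 (74.8%) were also higher in mle than in msl-2 heterozygotes, and 21 of them passed the test there. Of the 301 lower genes, 257 (85.4%) were lower in the heterozygotes and 27 passed, and no called gene passed in the opposite direction (edgeR, adjusted p under 0.05). The comparison of heterozygotes called 83 of 9910 genes (0.838%), 42 higher (0.424%) and 41 lower (0.414%), of 1636 with an unadjusted p under 0.05. Sizes were smaller there, where the values between mutants had chosen the genes: the higher genes had a median log2 difference of 1.09 between mutants and of 0.35 between heterozygotes, and the lower genes of -0.81 and -0.34. For the 107 lower X genes the medians were -0.74 and -0.21. Of the 22 higher X genes, 19 were higher in the heterozygotes and 6 passed there.

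**Figure D5:**
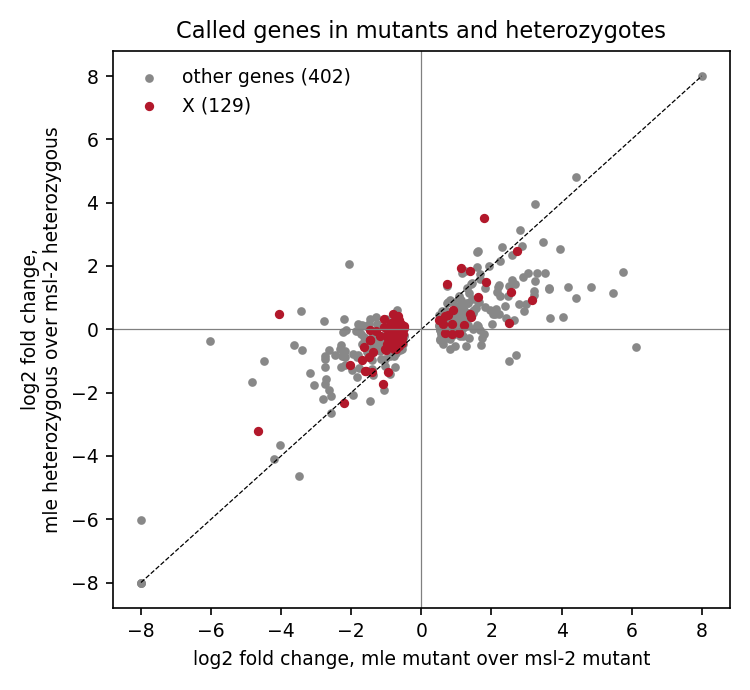
Log2 fold change of mle over msl-2 discs in heterozygotes (vertical axis) against that in mutants (horizontal axis) for the 531 genes called between the mutants; red points are X-linked and the dashed line marks equality. Most genes keep their direction with a smaller size in heterozygotes, and 5 genes past 8 on either axis are drawn at 8.

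Subtracting the difference between the heterozygotes left few single genes. Heterozygotes carried the mutated chromosome 2 over a balancer, whereas mutants were homozygous for it. Differences linked to that chromosome are therefore not necessarily removed by the subtraction. The difference of differences called 24 of 9910 genes (0.242%), 9 higher (0.0908%) and 15 lower (0.151%), of 1124 with an unadjusted p under 0.05. Of the 531 genes of the direct contrast, 20 were among them, 8 higher and 12 lower. Apart from roX1, CG13284, CG43120, CR43144 and lt, the genes named from this comparison were chosen after their values were seen. Of the 24 genes, 17 differed from their own heterozygotes in mle mutants but did not pass in msl-2 mutants, 2 passed in msl-2 mutants alone and 5 passed in both. Over all 9910 genes, 13.6% passed in mle mutants against their heterozygotes and 10.3% in msl-2 mutants. lt (2L, 22924795 to 22943135), a gene of the pericentric heterochromatin that encodes a vesicle tethering factor, had 300.1, 337 and 237 CPM in mle mutant discs, against 125, 144, 144 and 134 CPM in msl-2 mutant discs, and 119 and 127 CPM in mle heterozygotes against 139.9, 123 and 146 CPM in msl-2 heterozygotes. Only the mle mutant libraries were high, and the difference of differences was 1.23 ± 0.21 (edgeR adjusted p = 0.0324).

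A pair of neighbours on 2L moved the other way about. The non-coding RNA CR43144 (2L, 21657625 to 21658249) had 1.12, 1.24 and 3.62 CPM in mle mutant discs, against 101, 240.0, 73.1 and 157 CPM in msl-2 mutant discs. Cul2, which starts 485 bases beyond it (2L, 21658735 to 21663698) and encodes a cullin scaffold of ubiquitin ligases, had 83.6, 97.5 and 106 CPM in mle mutant discs, against 335, 674, 268 and 442 CPM in msl-2 mutant discs. Both groups of heterozygotes were near the mle mutant level of Cul2, at 102 and 90.0 CPM in the mle and 95.6, 94.0 and 103 CPM in the msl-2 stock. Cul2 changed by 2.14 on the log2 scale in msl-2 mutants against their heterozygotes (edgeR adjusted p = 0.000549) and by 0.00 in mle mutants against theirs (edgeR adjusted p = 0.996). The differences of differences were -2.14 for Cul2 and -5.67 for CR43144 (edgeR adjusted p = 0.044 and 0.0451). CR43144 had 8.70 and 17.7 CPM in mle heterozygotes against 17.8, 14.8 and 18.0 CPM in msl-2 heterozygotes. It rose by 3.08 in msl-2 mutants against their heterozygotes (edgeR adjusted p = 0.00434) and differed by -2.59 in mle mutants from theirs, which did not pass (edgeR adjusted p = 0.06). For Cul2 the 4 msl-2 mutant libraries stood above all others, whereas for CR43144 they lay above and the 3 mle mutant libraries below every heterozygous library.

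A second pair of overlapping genes rose in mle mutants. CG17574 (2R, 12849358 to 12869423) had 118, 151 and 109 CPM in mle mutant discs, against 47.0, 38.5, 36.7 and 47.2 CPM in msl-2 mutant discs, and its antisense RNA CR45140 had 59.5, 82.1 and 65.1 CPM in mle mutant discs, against 14.9, 18.2, 16.4 and 19.4 CPM in msl-2 mutant discs. Since the strand setting of the counting is not given in the sources used here, reads of these partners cannot be told apart. The differences of differences were 1.44 and 1.83 (edgeR adjusted p = 0.0211 for both). Rdh1, a retinol dehydrogenase, had 126, 153 and 93.0 CPM in mle mutant discs, against 24.6, 36.1, 24.4 and 23.3 CPM in msl-2 mutant discs. Rdh1 rose by 2.33 on the log2 scale against mle heterozygotes, and its difference of differences was 1.71 (edgeR adjusted p = 0.0324). Sdr, a secreted decoy of the insulin receptor, fell by 2.76 between the mutants and had 5.61, 3.32 and 5.79 CPM in mle mutant discs, against 37.7, 29.2, 30.6 and 37.0 CPM in msl-2 mutant discs. Its difference of differences was -1.58 (edgeR adjusted p = 0.0494), and it was lower in mle than in msl-2 heterozygotes as well (log2 -1.20, edgeR adjusted p = 0.0115).

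Some genes of stress and damage signalling were higher in mle mutants. Of 21 tested genes of JNK signalling, Xrp1 and regeneration, 4 rose and 0 fell by edgeR, against 2.54% and 3.33% of all genes tested. At an unadjusted p under 0.05 the counts were 8 and 0, and by DESeq2 7 and 0. The list had a median log2 fold change of 0.29, against -0.03 over all genes tested. Earlier results of these data were known when this list and those below were chosen, so the shares are descriptive only. kay, the Fos subunit of the AP-1 factor downstream of JNK, had 445, 440.1 and 486 CPM in mle mutant discs, against 254, 160.1, 253 and 247 CPM in msl-2 mutant discs (log2 fold change 1.01 ± 0.17, edgeR adjusted p = 0.00535). puc, the phosphatase that JNK induces and that restrains it, had 103, 99.5 and 74.9 CPM in mle mutant discs, against 57.1, 62.4, 50.6 and 51.8 CPM in msl-2 mutant discs (log2 fold change 0.74 ± 0.15, edgeR adjusted p = 0.0175). Xrp1, a stress factor of cells with ribosome defects, had 1772, 1675 and 1464 CPM in mle mutant discs, against 917, 1154, 762 and 928 CPM in msl-2 mutant discs (log2 fold change 0.81 ± 0.17, edgeR adjusted p = 0.0203). For each of these genes the groups did not overlap. Gadd45, named after its values were seen, rose by 1.28.

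These increases came on top of a rise in both mutants for Xrp1 and Gadd45. Against their own heterozygotes, Xrp1 rose by 1.86 in mle and by 1.20 in msl-2 mutants (edgeR adjusted p = 2.01e-05 and 0.000506), and Gadd45 by 3.11 and by 1.30 (edgeR adjusted p = 0.000938 and 0.0387). The difference of differences did not pass for kay, puc, Xrp1 or Gadd45 (edgeR adjusted p from 0.233 to 0.37). Without mle mutant replicate 1, puc, Xrp1 and Gadd45 lost their calls (edgeR adjusted p from 0.0836 to 0.102), and without msl-2 mutant replicate 4 all 3 did as well (from 0.0546 to 0.0705). Xrp1 and Gadd45 also lost theirs without msl-2 mutant replicate 1 (0.0616 and 0.0605), and Gadd45 without mle mutant replicate 2 (0.0644), while kay was called in all 7 such fits.

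Of 12 tested genes of Ilp8 and JAK/STAT signalling, 3 rose and 0 fell by edgeR, against 2.54% and 3.33% of all genes tested. At an unadjusted p under 0.05 the counts were 4 and 0, and by DESeq2 3 and 0. The list had a median log2 fold change of 0.29. Ilp8 (3L, 17029812 to 17032080) had 72.9, 220.2 and 30.7 CPM in mle mutant discs, against 3.73, 2.84, 2.91 and 5.29 CPM in msl-2 mutant discs, and at most 2.01 CPM in any heterozygous library. Its libraries did not overlap, but they varied widely within the mle mutants (log2 fold change 4.85 ± 0.82, edgeR adjusted p = 0.0304). Ilp8 lost its call without any of the 4 msl-2 mutant libraries or without mle mutant replicate 1 (edgeR adjusted p from 0.0866 to 0.101). The cytokines of the JAK/STAT pathway are X-linked, and upd1 and upd2 were higher too. upd1 had 17.9, 38.6 and 20.6 CPM in mle mutant discs, against 7.83, 11.8, 8.37 and 10.6 CPM in msl-2 mutant discs, and upd2 had 8.97, 10.4 and 6.51 CPM in mle mutant discs, against 0, 1.22, 2.55 and 2.11 CPM in msl-2 mutant discs. upd3 had 8.97, 12.9 and 6.87 CPM in mle mutant discs, against 7.09, 9.32, 5.82 and 3.52 CPM in msl-2 mutant discs, groups that overlapped, and did not pass the test (edgeR adjusted p = 0.492). upd1 lost its call without msl-2 mutant replicate 1 or mle mutant replicate 2 (edgeR adjusted p = 0.0557 and 0.0703). upd2 lost its call in 5 of 7 such fits, all but those without msl-2 mutant replicates 1 and 3 (0.0738 to 0.131). The difference of differences did not pass for Ilp8, upd1 or upd2 (edgeR adjusted p = 0.439 for upd1).

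Arc1, which encodes a capsid-forming protein related to retrotransposon Gag and is known from neurons, was higher in mle mutants. It had 2380.4, 1599.8 and 1710.1 CPM in mle mutant discs, against 304, 422, 114 and 344 CPM in msl-2 mutant discs, and 5.80 and 13.7 CPM in mle heterozygotes against 7.04, 30.0 and 13.1 CPM in msl-2 heterozygotes. Both mutants were thus far above the heterozygotes, and mle mutants above msl-2 mutants (log2 fold change 2.70 ± 0.39, edgeR adjusted p = 0.00718). The difference of differences was 3.48 ± 0.92 and did not pass (edgeR adjusted p = 0.251). Its neighbour Arc2 had 82.5, 47.7 and 35.8 CPM in mle mutant discs, against 13.8, 36.5, 13.1 and 14.4 CPM in msl-2 mutant discs, groups that overlapped slightly, and did not pass (edgeR adjusted p = 0.102). Markers of neurons and glia summed to 701 to 1034 CPM in mle mutant discs and to 703 to 1018 CPM in msl-2 mutant discs. By edgeR 0 of 12 tested members were called (1 higher at an unadjusted p under 0.05 and 1 higher by DESeq2). Of the 12, 10 had a fold change above 0 and 2 below, against 4182 of 9046 above 0 over all genes tested. Whether neural cells contributed to the Arc1 transcript was not tested.

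Of 22 tested genes of the DNA damage response, 1 rose and 1 fell, and of 17 of heat shock and the unfolded protein response likewise 1 and 1, near the 2.54% and 3.33% of all genes tested. Irbp, the Ku70 subunit that binds broken DNA ends, had 81.9, 115 and 91.1 CPM in mle mutant discs, against 64.2, 56.3, 46.9 and 59.2 CPM in msl-2 mutant discs (log2 fold change 0.77 ± 0.15, edgeR adjusted p = 0.0132), and about 19.1 to 29.9 CPM in the heterozygotes. Against their own heterozygotes, Irbp rose by 2.30 in mle and by 1.26 in msl-2 mutants (edgeR adjusted p = 9.05e-06 and 0.000854). The difference of differences of Irbp did not pass the edgeR test. The X-linked replication factor mus101 fell by 0.92 (edgeR adjusted p = 0.0169), a call lost without mle mutant replicate 1 or 3 or msl-2 mutant replicate 1 (edgeR adjusted p from 0.0529 to 0.0857). In the list of heat shock and the unfolded protein response, PEK, the kinase that slows translation under endoplasmic reticulum stress, rose by 0.65 (edgeR adjusted p = 0.00993).

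The small heat shock gene Hsp27 fell. It had 793, 1199 and 1312 CPM in mle mutant discs, against 2517, 3038, 2219 and 3981 CPM in msl-2 mutant discs, and 8184 and 5317 CPM in mle heterozygotes against 10498, 8888 and 4677 CPM in msl-2 heterozygotes. The decrease between the mutants was -1.41 ± 0.23 (edgeR adjusted p = 0.00535), and against its own heterozygotes Hsp27 fell by 2.61 in mle and by 1.44 in msl-2 mutants (edgeR adjusted p = 0.00024 and 0.00715). The difference of differences was -1.17 ± 0.44 and did not pass (edgeR adjusted p = 0.356). Inducible heat shock genes varied within both groups, Hsp68 having 14.6, 158 and 9.40 CPM in mle mutant discs, against 232, 864, 5.46 and 114 CPM in msl-2 mutant discs. It was highest in msl-2 mutant replicate 2, the library with the fat body transcripts. Without that library Hsp27 remained called, as it did in all 7 fits with 1 library left out (edgeR adjusted p from 0.00367 to 0.027). In fits of 20 and 21 libraries of the series Hsp27 lost its call.

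Of 31 tested detoxification genes, 2 rose and 4 fell, against 2.54% and 3.33% of all genes tested, with a median of -0.19. GstS1, an abundant glutathione transferase, had 390.4, 416 and 325 CPM in mle mutant discs, against 579, 796, 631 and 763 CPM in msl-2 mutant discs (log2 fold change -0.87 ± 0.17, edgeR adjusted p = 0.0132). The X-linked GstT4 fell by 1.47 (edgeR adjusted p = 0.016, and 0.0579 without mle mutant replicate 3). Besides GstD3 above, Gclc rose by 0.67 and Cyp4e2 and Cat fell, calls outside the naming rule that were lost in 6, 5 and 7 of the 7 fits with 1 library left out.

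Wing patterning genes were called in both directions. Of 23 tested genes of the proximal-distal axis and hinge, 1 rose and 3 fell, against 2.54% and 3.33% of all genes, with a median of -0.19. Dll, the homeobox factor of distal appendage parts, had 56.1, 53.5 and 67.6 CPM in mle mutant discs, against 126, 91.6, 86.6 and 99.4 CPM in msl-2 mutant discs (log2 fold change -0.76 ± 0.16, edgeR adjusted p = 0.0165). rn, a zinc finger factor of the wing pouch, had 109, 61.8 and 102 CPM in mle mutant discs, against 174, 176, 160.1 and 154 CPM in msl-2 mutant discs (log2 fold change -0.87 ± 0.19, edgeR adjusted p = 0.0206). exd, the X-linked partner of Hox proteins, fell by 0.60, and sob, a zinc finger gene of the odd-skipped family, rose by 0.72. In bulk tissue, fewer cells of a type and less RNA per cell cannot be told apart. Dll and rn lost their calls without msl-2 mutant replicate 1 (edgeR adjusted p = 0.0517 and 0.0558), and Dll without mle mutant replicate 1 (0.0779). sob lost its call without mle mutant replicate 1 or 3 or msl-2 mutant replicate 2 (0.0684 to 0.0849), and exd in all such fits but 2 (0.0537 to 0.161).

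The other axes had a call or none each, where 3.33% of all genes tested were called lower. tkv, the type I receptor of Dpp, fell by 0.65 as 1 of 17 tested genes of the anterior-posterior axis (median -0.27). E(spl)m8-HLH, a Notch target, fell by 0.82 as 1 of 20 genes of the dorsal-ventral boundary (median -0.26), a list with 35% of its tested members on the X. aos, a secreted inhibitor and target of EGFR signalling, fell by 0.58 as 1 of 12 genes of that pathway (median -0.18). tkv lost its call in 6, E(spl)m8-HLH in 5 and aos in 6 of the 7 fits with 1 library left out (edgeR adjusted p up to 0.202), so that these counts rest on the full set of libraries.

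Some cell cycle and replication genes were lower in mle mutants. Of 29 tested members, 0 rose and 5 fell by edgeR, against 2.54% and 3.33% of all genes tested. At an unadjusted p under 0.05 the counts were 0 and 10, and by DESeq2 0 and 6. The median was -0.25, and 23 of 29 had a fold change below 0, against 4864 of 9046 over all genes tested. dap, the inhibitor of Cyclin E and Cdk2 and hence a brake on the cycle, had 78.0, 78.4 and 78.8 CPM in mle mutant discs, against 141, 139, 148 and 137 CPM in msl-2 mutant discs (log2 fold change -0.84 ± 0.12, edgeR adjusted p = 0.00206), and was called in all 7 fits with 1 library left out. Mcm5, a subunit of the replicative helicase, had 80.8, 118 and 126 CPM in mle mutant discs, against 224, 190.1, 155 and 187 CPM in msl-2 mutant discs (log2 fold change -0.79 ± 0.17, edgeR adjusted p = 0.0203). Dp, the partner of E2F, had 133, 170.5 and 184 CPM in mle mutant discs, against 263, 255, 214 and 281 CPM in msl-2 mutant discs (log2 fold change -0.63 ± 0.15, edgeR adjusted p = 0.0276). RnrS, a subunit of the enzyme that makes deoxynucleotides, and the X-linked Mcm6, both outside the naming rule, fell by 0.84 and 0.82.

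The members other than dap depended on single libraries. Without mle mutant replicate 1, msl-2 mutant replicate 1 or msl-2 mutant replicate 4, 1 member remained called in each case, against 5 with all libraries. The same list had a median of -0.27 between the heterozygotes, where Mcm5 differed by -0.66 (edgeR adjusted p = 0.157). The difference of differences of dap was -0.61 and did not pass (edgeR adjusted p = 0.406). Diap1, the inhibitor of apoptosis that is also a Hippo pathway target, had 187, 200.3 and 247 CPM in mle mutant discs, against 332, 287, 341 and 399 CPM in msl-2 mutant discs (log2 fold change -0.67 ± 0.15, edgeR adjusted p = 0.0246). It was the 1 call among 14 tested apoptosis genes, against 5.87% of all genes tested. Of the 14, 4 higher and 1 lower had an unadjusted p under 0.05. The junction protein jub, a positive regulator of Yorkie, rose by 0.50 as the other call among 16 Hippo genes. Diap1 lost its call in 4 and jub in 7 of the 7 fits with 1 library left out (edgeR adjusted p from 0.0505 to 0.135).

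Of 65 tested nuclear genes of the respiratory chain, 1 rose and 6 fell, against 2.54% and 3.33% of all genes tested, with a median of -0.07. ND-24 and ND-20, X-linked subunits of complex I, had log2 fold changes of -0.86 ± 0.16 and -0.85 ± 0.19 (edgeR adjusted p = 0.0114 and 0.0226). ND-24 had 39.3, 47.3 and 34.7 CPM in mle mutant discs, against 88.4, 64.4, 65.9 and 76.5 CPM in msl-2 mutant discs. ND-PDSW (2L, 3466157 to 3467334), another complex I subunit whose gene starts 44 bases beyond the end of msl-2, had 95.4, 141 and 67.6 CPM in mle mutant discs, against 210.4, 195, 214 and 213 CPM in msl-2 mutant discs (log2 fold change -1.03 ± 0.21, edgeR adjusted p = 0.0165). Outside the naming rule, ND-15, ND-18 and UQCR-14 fell and the rare COX7AL rose, but COX7AL was called in 1, UQCR-14 in 2, and ND-15 and ND-18 in 3 each of the 7 fits with 1 library left out. Of the 6 lower genes, 4 are X-linked (ND-24, ND-20, ND-18 and UQCR-14), and 16.9% of the tested members are on the X. Without mle mutant replicate 1, 0 members were lower, and without mle mutant replicate 3 or msl-2 mutant replicate 1, 2 were in each case.

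Few ribosomal protein genes passed the test between the mutants, where 5.87% of all genes tested did. Of 79 tested cytoplasmic ribosomal protein genes, 0 rose and 1 fell by edgeR, as at an unadjusted p under 0.05 and by DESeq2, with a median of 0.02. RpS15Ab, one of a pair of close paralogs whose reads could be shared, fell by 0.65. Of 70 mitochondrial ribosomal protein genes, 0 rose and 2 fell by edgeR (0 and 6 at an unadjusted p under 0.05; 0 and 2 by DESeq2), with a median of -0.01. Both, mRpL16 and mRpS14, are X-linked and fell by 0.52 and 0.77. These 3 calls were lost in 5, 7 and 5 of the 7 fits with 1 library left out. Of 34 proteasome genes 0 were called by edgeR (3 higher and 1 lower at an unadjusted p under 0.05; 1 higher by DESeq2), with a median of 0.04.

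Markers of other cell types bear on the tissue compared. Of 15 tested larval muscle markers, 0 rose and 1 fell by edgeR (3 and 1 at an unadjusted p under 0.05; 2 and 1 by DESeq2), with a median of 1.27, against -0.03 over all genes. Most were high in mle mutant replicate 3 alone, TpnC73F having 8.41, 19.1 and 405 CPM in mle mutant discs, against 69.0, 8.51, 5.46 and 24.3 CPM in msl-2 mutant discs. sls, the titin-like gene of muscle, moved the other way with 245, 212 and 287 CPM in mle mutant discs, against 681, 1125, 472 and 452 CPM in msl-2 mutant discs (log2 fold change -1.46 ± 0.32, edgeR adjusted p = 0.0319), and 124 and 169.6 CPM in mle heterozygotes against 62.5, 143 and 143 CPM in msl-2 heterozygotes. Its call was lost without any of the mle mutant libraries or without msl-2 mutant replicate 1 (edgeR adjusted p from 0.0795 to 0.135). Of 11 tested fat body markers 0 were called by edgeR (0 at an unadjusted p under 0.05; 1 lower by DESeq2), with a median of -3.11 set by msl-2 mutant replicate 2: Lsp2, a larval storage protein, had 8.41, 2.49 and 7.96 CPM in mle mutant discs, against 72.7, 2359.9, 4.00 and 137 CPM in msl-2 mutant discs.

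Hemocyte markers did not pass the test. All 10 tested members had a fold change above 0 (median 0.76), against 4182 of 9046 over all genes tested. By edgeR 0 were called, with 5 higher at an unadjusted p under 0.05 and 2 higher by DESeq2. The collagen gene Col4a1, the nearest to the threshold, had 188, 86.3 and 121 CPM in mle mutant discs, against 73.5, 56.3, 81.5 and 49.7 CPM in msl-2 mutant discs (edgeR adjusted p = 0.0621). The list summed to 314 to 537 CPM in mle mutant discs and to 256 to 294 CPM in msl-2 mutant discs, and it varied more among heterozygotes, from 225 to 711 CPM in the mle stock and from 178 to 410 CPM in the msl-2 stock. Tracheal markers had 1 higher and 2 lower calls of 8, against 2.54% and 3.33% of all genes tested. The gene uif rose by 0.89, and trh, the factor that specifies trachea, and Cht2 fell by 0.90 and 0.50. uif lost its call in 3, trh in 5 and Cht2 in 6 of the 7 fits with 1 library left out. Markers of adult muscle precursors, the cells under the notum, had 0 calls of 11 tested by edgeR (2 higher at an unadjusted p under 0.05; 0 by DESeq2), and twi had 30.3, 16.2 and 29.3 CPM in mle mutant discs, against 20.9, 16.6, 17.5 and 20.1 CPM in msl-2 mutant discs. The part that other cell types have in the differences above was not tested.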

How the data were processed

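The authors deposited unnormalised counts of reads for each FlyBase gene and library, which were checked to be whole numbers. Per the submitters' processing notes, the tools were STAR 2.6.1b, featureCounts of Subread 1.6.1, SAMtools 1.9 and DESeq2 1.18.1, and the build was dm6. Neither strand setting nor annotation release is stated there (not given in the sources used here), so counts of overlapping genes, antisense partners and close paralogs are uncertain.

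The contrast was fitted to the 7 mutant libraries with edgeR 4.0.16 in R 4.3.3 (robust quasi-likelihood test, filterByExpr, TMM on genes of 2L, 2R, 3L and 3R). The Benjamini-Hochberg adjustment ran over 9046 genes, and a gene was called at an adjusted p under 0.05. SEs were derived as log2 fold change divided by the square root of F. Comparisons with heterozygotes came from 1 fit of 12 libraries (9910 genes), whose scaling also gave the printed CPM. Of 17558 genes, 17252 matched the dm6 annotation; the other 306 held 5.29% to 5.86% of counts in a library and were left out by chromosome. Values per library used a prior count of 2. Floors of 3 counts cover counting error only. The fit was tested on simulated data.

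The named genes are those of the MSL complex and CG11695, up to 5 X-linked and 5 autosomal called genes per direction with the largest fold change (mean of at least 5 CPM, groups not overlapping), and, per list, the 3 called members of smallest adjusted p at most. The contrast, members and lists were chosen with earlier results of these data known. Alternatives were other scalings, filters, sets of libraries, a replicate block, DESeq2 1.42.0 and each library left out. Figures were drawn with matplotlib 3.10.9.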

Additional observations from a re-analysis of the deposited data

Results flagged for a closer look

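In the 4 msl-2 mutant libraries, 10 of 98 sets of values had 1 library far from the other 3; chance alone gives about 1 in 20. For kay, replicate 2 was low, at 160.1 CPM against 247 to 254 CPM. In replicate 1, mus101 was high (54.1 CPM against 40.4 to 42.6 CPM), PEK was high (128 CPM against 116 to 117 CPM), CG15282 was low (45.9 CPM against 86.2 to 89.6 CPM) and the antisense RNA CR43866 was at 0 CPM, against 0.705 to 0.811 CPM. Rdh1 was high in replicate 2, at 36.1 CPM against 23.3 to 24.6 CPM. In replicate 3, RpS15Ab was low (139 CPM against 168 to 172 CPM) and CG5273 high (12.4 CPM against 3.65 to 4.58 CPM). Replicate 1 also had the highest X minus autosome value, 0.148 against 0.096 to 0.103 in the scale of the 7 mutant libraries. The summed fat body markers of replicate 2, 7286 CPM against 658 to 893 CPM, were the widest gap of all.

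Of the 20 genes called both directly and as a difference of differences, 19 are named here, and the remaining 1 matched no gene of the annotation used. Higher in mle relative to msl-2 mutants were CG43120 (6.70), CG13284 (3.94), CR45140 (1.83), Rdh1 (1.71), CG17292 (1.51), CG17574 (1.44), lt (1.23) and foi (1.08), on the log2 scale. Lower were CR43144 (-5.67), roX1 (-4.55), CG12129 (-3.19), CG15282 (-3.16), CG33640 (-2.75), Cul2 (-2.14), CG9427 (-1.83), CG3625 (-1.72), Sdr (-1.58), CG42238 (-1.30) and inaE (-1.29). edgeR adjusted p ran from 5.3e-07 for roX1 to 0.0494 for Sdr. Of the genes not described above, CG12129 had 4.49, 3.73 and 2.53 CPM in mle mutant discs, against 124, 94.8, 89.5 and 97.6 CPM in msl-2 mutant discs, and it was lower in mle than in msl-2 heterozygotes too (log2 -1.67, edgeR adjusted p = 0.00011). foi, a zinc transporter, lost its call between the mutants without msl-2 mutant replicate 2 or mle mutant replicate 3 (edgeR adjusted p = 0.0521 and 0.0518), and CG42238 in 5 of 7 such fits (0.0552 to 0.101).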

How the results depend on the processing

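The X stood lower in mle than in msl-2 mutants under all 20 alternatives tried, from -0.18 with no filter on low counts to -0.27 as a difference of differences. With 1 library left out it was -0.20 to -0.24, with exact permutation p = 0.0667 or 0.1, the smallest that 6 libraries allow. Scaling on all genes, DESeq2 and a fit without robust estimation used the same libraries and genes and could hardly change this value. Counts of calls moved more. Higher and lower calls were 120 and 88 in a fit of all 21 libraries and 9 and 15 as a difference of differences, where 0 X genes were higher and 4 lower (10 and 19 in 21 libraries). DESeq2 gave 348 higher genes, 35 of them on the X. A filter at 1 CPM in 3 libraries gave 191 lower genes, 58 on the X, and no filter gave 65 X-linked lower genes. Fits of 12 and 20 libraries gave 38 and 41 higher X genes. With 1 library left out, higher calls ranged from 110 to 267, lower calls from 88 to 297, and on the X from 12 to 27 and from 22 to 111. Of the 531 calls, 504 were shared with DESeq2, 196 with the fit of 21 libraries and 192 with the fit without mle mutant replicate 1. Over single genes, 3 changed sign, each as a difference of differences: GstD3 (-0.41), Lztr1 (0.13) and msl-1 (0.23).

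Libraries with the same replicate number did not deviate together (correlations of -0.34, 0.067 and 0.10), so the numbers were not taken to pair them. A replicate block gave 163 higher and 162 lower genes, 15 and 48 of them on the X, and an X minus autosome value of -0.21. The depth of the mle mutant libraries limits weakly expressed genes. The smallest difference that the test could detect was not computed, and the floor of 3 counts only bounds folds where a group had no count. The cause of these changes was not tested.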

Other observations

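With 5.87% of all genes called, lists of this size hold about 1 call or none at the background share, so nothing about the groups is read from the counts that follow. Of 23 tested genes of the ecdysone cascade, 0 were called by edgeR (2 higher and 2 lower at an unadjusted p under 0.05; 1 higher by DESeq2), with a median log2 fold change of -0.04. Of 13 cuticle genes 0 were called by edgeR (2 lower at an unadjusted p under 0.05; 1 lower by DESeq2). Of 12 genes of glycolysis and lactate, 0 were called by edgeR (1 higher and 1 lower at an unadjusted p under 0.05; 0 by DESeq2). Genes of leg, haltere and Hox identity had 0 calls of 14 by edgeR, 0 at an unadjusted p under 0.05 and 0 by DESeq2. Of 9 tested immunity genes, Dif, a Rel factor of the Toll pathway, rose by 0.82 with 97.6, 89.6 and 69.1 CPM in mle mutant discs, against 48.5, 57.2, 39.7 and 49.0 CPM in msl-2 mutant discs. Its edgeR adjusted p was 0.0165, and 0.0836 without mle mutant replicate 1.

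The same holds for the lists of regulators and of chromosomes. Of 15 tested chromatin partners of dosage compensation, 0 were called by edgeR (1 higher and 1 lower at an unadjusted p under 0.05; 1 lower by DESeq2), with a median of -0.12. Of 10 sex determination genes 0 were called by edgeR (2 lower at an unadjusted p under 0.05; 0 by DESeq2). Sxl, the X-linked switch that blocks msl-2 translation in females, had 107, 84.2 and 122 CPM in mle mutant discs, against 129, 146, 147 and 134 CPM in msl-2 mutant discs (log2 fold change -0.41 ± 0.15, edgeR adjusted p = 0.147). Of 17 genes of the autosomal heterochromatin, lt alone was called by edgeR and 0 were lower (3 higher and 2 lower at an unadjusted p under 0.05; 2 higher by DESeq2), with a median of 0.00. Of the 12 Y-linked genes in the table, 2 passed the filter and 0 were called by edgeR, at an unadjusted p under 0.05 or by DESeq2. Markers of the salivary gland (3 tested; 1 higher at an unadjusted p under 0.05 and 1 higher by DESeq2), of the gut (1 tested) and of the germline and testis (2 tested) had 0 calls by edgeR, and those of gut and germline had 0 at an unadjusted p under 0.05 and by DESeq2.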
